A study of Mus musculus with 6 samples.

Results

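The 10 genes described here encode secreted proteins known to support blood cell formation in the spleen and bone marrow, and they were followed in the endothelial cell fraction of mouse spleen. These haematopoietic niche factors were Cxcl12, Kitl, Csf1, Il7, Il34, Il15, Igf1, Flt3l, Angptl2 and Ptn, taken by gene symbol from a table of 23203 named genes. All 10 of the 10 were in the table and all 10 passed the filter on low counts, as did 19741 genes in all. The rule that picks them by symbol uses no measured value, but the list itself was chosen with earlier results of these data known.

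The cells came from spleens of mice with the genotype Apoe knockout, whose blood cholesterol is high because they have no apolipoprotein E. All 6 mice ate a high cholesterol diet and were treated for 8 weeks with an ASO, an antisense oligonucleotide designed to bind 1 RNA and reduce its amount. The group called control ASO held mice 1601, 1602 and 1608, and the group called MLKL ASO held mice 1603, 1604 and 1607, whose genotype label is Mlkl KD. Both groups therefore share the Apoe deletion, the diet and an ASO, and no untreated mouse or mouse on a normal diet was analysed here. Neither the ages of the mice nor the isolation of the endothelial cells is stated in the sources used here, and the labels do not tie the ASO to endothelial cells. One RNA library was read per mouse, so the 3 mice of a group are the replicates.

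A niche is the set of cells that surrounds blood stem and progenitor cells and feeds them with secreted or membrane-bound ligands. In the bone marrow these ligands come mainly from endothelial cells and from perivascular stromal cells. The spleen can take up the same role when blood formation expands outside the marrow, with sinusoidal endothelium and stromal cells around the sinusoids as known sources of stem cell factor and of the chemokine CXCL12.

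Per kilobase of annotated exon, Kitl was the most abundant of the 10 factors in both groups. The scale here is CPM, counts scaled to a common library size with the edgeR method TMM, divided by the length of all annotated exons of a gene. This allows levels of different genes to be set side by side. Kitl, the gene for stem cell factor, the ligand of the receptor KIT on blood progenitors, stood at 83.4 ± 36.0 CPM per kilobase (SD, n = 3) in control mice and 81.4 ± 4.60 in MLKL ASO mice. Cxcl12, the chemokine that holds stem cells and B cell precursors in the niche, followed at 17.7 ± 7.52 and 16.9 ± 5.85 CPM per kilobase. The lowest Kitl value of any mouse, 52.5, lay above the highest Cxcl12 value, 23.4. The lowest Cxcl12 value, 9.17, lay above the highest value of Flt3l, 8.04. Flt3l, the ligand of the progenitor receptor FLT3, measured 6.61 ± 1.34 CPM per kilobase in control and 4.40 ± 0.716 in MLKL ASO mice, and Csf1, the macrophage growth factor, 5.80 ± 0.529 and 4.41 ± 1.04. Il15, Igf1, Il34 and Angptl2 came next, with control means from 4.01 down to 2.01 CPM per kilobase, and each overlapped its neighbour in this order. Il7, which lymphocyte precursors need, measured 0.756 ± 0.301 in control and 0.632 ± 0.0517 in MLKL ASO mice. Ptn, the heparin-binding growth factor pleiotrophin, was the lowest at 0.156 ± 0.0798 and 0.248 ± 0.0103 CPM per kilobase, and its highest mouse (0.255) lay below the lowest Il7 value (0.479). With the longest annotated transcript as the length, Kitl, Cxcl12, Il7 and Ptn kept their places in the control order, while Angptl2 moved from place 8 to place 7 and Il34 from 7 to 8.

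**Figure D1:**
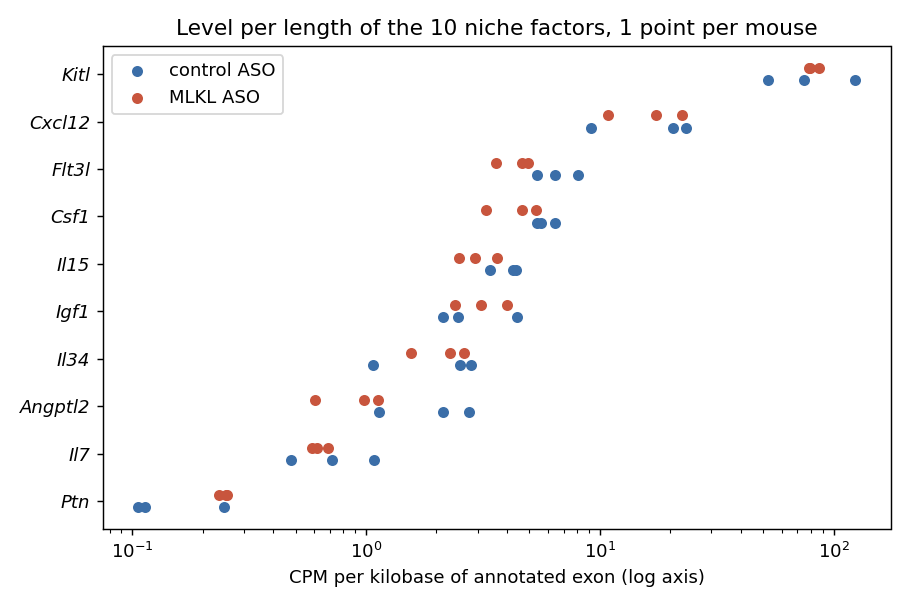
Level of each of the 10 niche factors per kilobase of annotated exon (x axis, CPM per kilobase, log axis), with 1 point per mouse coloured by group. Kitl lies apart at the top, from 52.5 to 123 CPM per kilobase, and Ptn at the bottom, from 0.106 to 0.255.

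The promoter sequences of 4 factors are shown, picked by their measured levels: Kitl as the most abundant factor, and Csf1, Flt3l and Angptl2 as the 3 whose groups did not overlap. Each is the 250 bases before the gene's start in the RefSeq table of build GRCm38.p6, read 5′ to 3′ on the strand of the gene, which held an entry for 7 of the 10 factors (not for Il7, Il34 and Il15). The windows are chr10:100015571-100015820 (plus strand), chr3:107760470-107760719 (minus strand), chr7:45136433-45136682 (minus strand) and chr2:33215711-33215960 (plus strand). Capitals mark matches on either strand to 5 motifs: the GC box GGGCGG, the TATA motif TATAAA, the ETS core CCGGAA, the AP-1 motif TGANTCA and the E-box CACGTG, of which adjoining GC boxes can share bases.
Kitl: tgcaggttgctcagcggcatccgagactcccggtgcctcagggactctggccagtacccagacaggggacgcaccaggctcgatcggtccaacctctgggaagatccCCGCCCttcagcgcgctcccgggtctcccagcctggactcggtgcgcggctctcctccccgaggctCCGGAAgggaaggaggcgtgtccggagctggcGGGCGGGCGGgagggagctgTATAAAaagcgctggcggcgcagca
Csf1: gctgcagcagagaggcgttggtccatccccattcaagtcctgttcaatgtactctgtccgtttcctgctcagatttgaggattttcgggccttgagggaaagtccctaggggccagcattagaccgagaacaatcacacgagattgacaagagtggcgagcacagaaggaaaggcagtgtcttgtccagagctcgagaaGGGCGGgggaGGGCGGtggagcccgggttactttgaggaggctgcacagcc
Flt3l: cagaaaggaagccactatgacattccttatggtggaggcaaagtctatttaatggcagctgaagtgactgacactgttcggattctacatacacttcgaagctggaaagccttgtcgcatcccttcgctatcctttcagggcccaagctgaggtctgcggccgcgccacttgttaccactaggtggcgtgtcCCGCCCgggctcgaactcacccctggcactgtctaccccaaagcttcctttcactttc
Angptl2: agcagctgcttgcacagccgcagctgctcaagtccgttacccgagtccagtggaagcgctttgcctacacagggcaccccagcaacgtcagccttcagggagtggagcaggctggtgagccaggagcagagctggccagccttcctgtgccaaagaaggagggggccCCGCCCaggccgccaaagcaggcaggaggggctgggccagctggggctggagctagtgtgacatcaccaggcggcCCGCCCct
The Kitl window held 3 GC boxes, 1 TATA motif that begins 25 bases before the start and 1 ETS core that begins 77 bases before it. Csf1 and Angptl2 held 2 GC boxes each and Flt3l 1, and none of these 3 windows had a match to the other 4 motifs. Over all 32851 promoters of the table, 32.7% held a GC box, 12.4% a TATA motif, 12% an ETS core, 6.7% an AP-1 motif and 6.0% an E-box. The GC content was 69.2% for Kitl, 56.4% for Csf1, 53.6% for Flt3l and 66.8% for Angptl2, beside a median of 52.4%. Against the GENCODE M21 transcripts, bases after the start were found in a transcript of the gene for Kitl, Csf1 and Flt3l and were not found for Angptl2. Their place within the transcript was not checked, so all 4 starts rest on the RefSeq table. The motif matches describe the letters of the windows and were not tested for use by any factor.

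The libraries held 59988013 to 87775554 estimated counts. Mlkl, the target of the ASO and the gene for the pseudokinase that executes necroptosis, measured 30.1 to 38.7 CPM in control and 3.73 to 7.52 CPM in MLKL ASO mice, with every control mouse above every MLKL ASO mouse. Its log2 fold change of -2.56 (SE 0.27) had an adjusted p of 0.0666 in edgeR's quasi-likelihood test and of 2.11e-15 in DESeq2. The CPM values from here on are scaled by TMM in the same way and, unless given per kilobase, are not divided by length. The marker lists for the labelled cell type were well represented: Pecam1, an adhesion protein of all endothelium, measured 274 to 413 CPM, Cdh5, its junctional cadherin, 105 to 240 CPM, Kdr, the main VEGF receptor, 240 to 437 CPM, and Stab2, a scavenger receptor of sinusoids, 511 to 1020 CPM. RNA of other cells was present too. The leukocyte gene Ptprc measured 284 to 690 CPM, the macrophage gene Adgre1 24.6 to 92.4 CPM, and the stromal genes Pdgfra 1.36 to 8.88, Pdgfrb 1.20 to 5.08 and Col1a1 2.29 to 9.70 CPM. Of all the marker genes in the table, none was at 0 in every mouse. Control mouse 1608 stood apart. Its summed megakaryocyte markers were 112 CPM, beside 1227 to 3115 CPM in the other 5 mice. Its mean log2 levels of neutrophil, erythroid, progenitor, reticular fibroblast and mural cell markers were the lowest, and those of endothelial and sinusoid markers the highest. In bulk RNA, fewer cells of a type and less RNA per cell cannot be told apart.

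None of the 10 niche factors passed the threshold between the groups. In edgeR's quasi-likelihood test with Benjamini-Hochberg adjustment over all genes, 0 of 10 had an adjusted p under 0.05, where 0.0101% of all genes tested did (2 of 19741). At an unadjusted p under 0.05 stood 2 of the 10, Flt3l and Angptl2, both lower with the MLKL ASO, where 12% of all genes did, 7.13% lower and 4.86% higher. DESeq2 called 0 of 10 (2.42% of all genes), limma-voom with sample weights called 0 of 10, and the authors' deposited table lists 0 of 10 past that threshold (1.82% of its rows with a symbol of their own). At an unadjusted p under 0.05, limma-voom had 4 of the 10, with Il15, Flt3l and Angptl2 lower and Ptn higher, where 17.9% of all genes stood in that fit (9.64% lower and 8.28% higher). The groups did not overlap in 3 factors, Csf1, Flt3l and Angptl2, all lower with the MLKL ASO, where 10% of all genes lay apart in that direction, 8.73% in the other and 18.7% in either. The log2 fold change, MLKL ASO minus control ASO as for Mlkl above, was below 0 in 7 of the 10 and had a median of -0.16, beside 52.0% of all genes below 0 and a median of -0.016 over all genes. Without control mouse 1608 the median of the 10 was -0.37. An exact two-sided permutation test of 1 gene over 3 and 3 mice cannot give a p below 0.1.

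**Figure D2:**
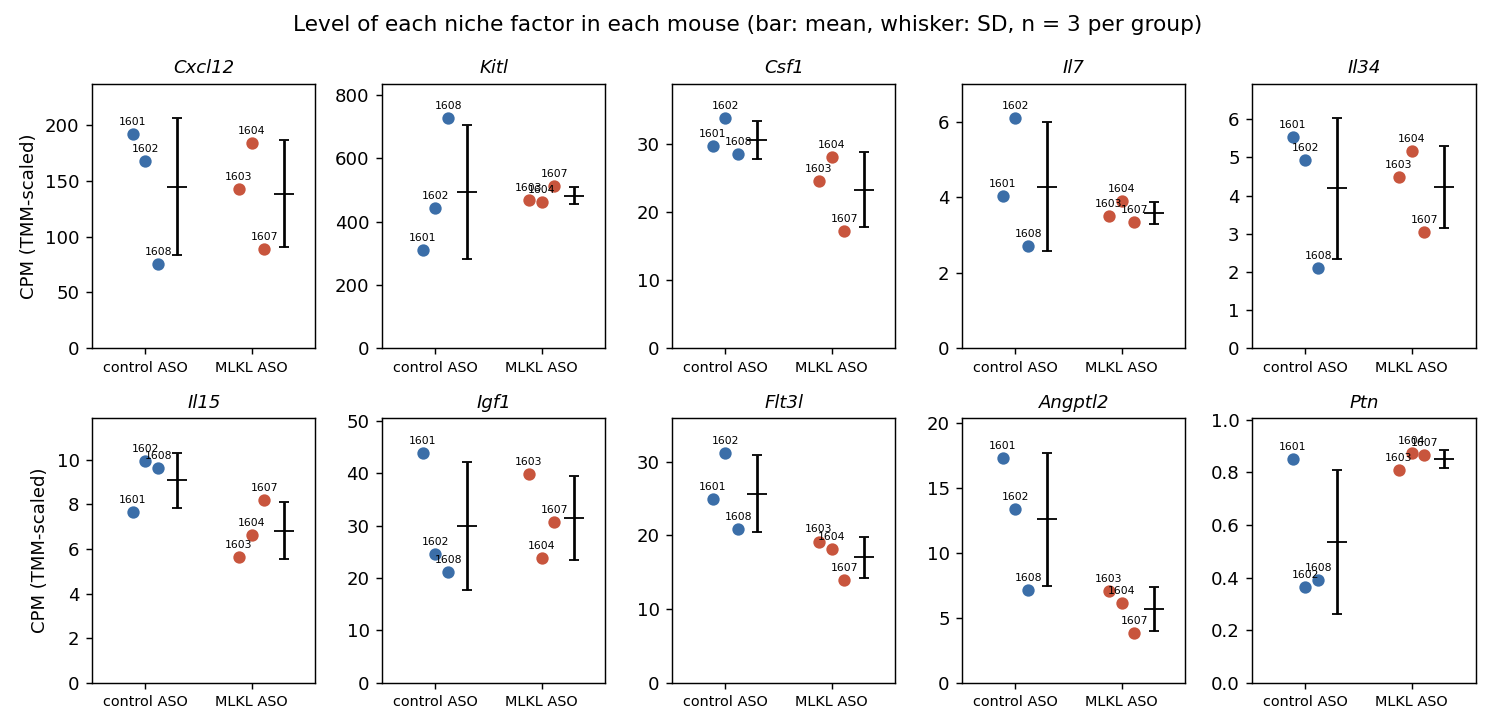
TMM-scaled CPM of each niche factor (y axis, from 0) in each numbered mouse of the control ASO and MLKL ASO groups, with the mean as a bar and the SD as a whisker (n = 3 per group). The groups lie apart in Csf1, Flt3l and Angptl2 and share a range in the other 7 factors.

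Kitl and Cxcl12, the main ligands for keeping blood stem cells in place, did not separate the groups. Kitl measured 311, 441 and 727 CPM in control mice 1601, 1602 and 1608 and 469, 462 and 512 CPM in MLKL ASO mice 1603, 1604 and 1607. Control mice spanned the whole range, and all 3 MLKL ASO mice lay inside it. Kitl had a log2 fold change of -0.03 (SE 0.28, 95% interval -0.69 to 0.62, edgeR adjusted p = 0.980). Without mouse 1608 it was 0.35, of the opposite sign, and the 3 MLKL ASO mice then lay above both remaining control mice. The deposited values are per gene and do not separate the membrane-bound from the soluble form of stem cell factor. Cxcl12 measured 191, 167 and 74.9 CPM in control mice 1601, 1602 and 1608 and 142, 184 and 88.7 CPM in mice 1603, 1604 and 1607. Its lowest value stood in the mouse with the highest Kitl. Cxcl12 had a log2 fold change of -0.06 (SE 0.38, 95% interval -0.95 to 0.83, edgeR adjusted p = 0.971). It was -0.38 without control mouse 1608, 0.20 without control mouse 1601, 0.04 without control mouse 1602 and 0.18 without MLKL ASO mouse 1607, so its sign rests on single mice.

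Csf1 and Il34 are the pair of ligands that share the receptor CSF1R, which macrophages and their precursors need. Csf1 measured 29.7, 33.8 and 28.5 CPM in control mice 1601, 1602 and 1608 and 24.5, 28.1 and 17.3 CPM in mice 1603, 1604 and 1607. The groups did not overlap, but the nearest mice, 1608 and 1604, were 28.5 and 28.1 CPM. For Csf1 the log2 fold change was -0.40 (SE 0.20, 95% interval -0.86 to 0.06, edgeR adjusted p = 0.469), and the authors' deposited table gives -0.28. Under RLE in place of TMM scaling, under both other filters and without globin and antigen receptor rows or control mouse 1602, the groups of Csf1 overlapped. Il34 measured 5.53, 4.94 and 2.09 CPM in control mice 1601, 1602 and 1608 and 4.49, 5.15 and 3.05 CPM in mice 1603, 1604 and 1607. Its low mice, 1608 and 1607, were the same as those of Cxcl12. For Il34 the log2 fold change was 0.01 (SE 0.40, 95% interval -0.92 to 0.94, edgeR adjusted p = 0.996), and leaving out control mouse 1608, or MLKL ASO mouse 1603 or 1604, turned it to -0.31, -0.04 or -0.16.

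Flt3l, Il7 and Il15 act on lymphoid and dendritic lineages. FLT3 ligand drives the expansion of early progenitors and dendritic cells. Flt3l measured 24.9, 31.2 and 20.9 CPM in control mice 1601, 1602 and 1608 and 19.2, 18.1 and 13.9 CPM in mice 1603, 1604 and 1607. Every control mouse lay above every MLKL ASO mouse, also under each other scaling and filter tried. The fitted control level was 1.5-fold that of MLKL ASO mice, a log2 fold change of -0.59 (SE 0.20, 95% interval -1.06 to -0.12). In edgeR's quasi-likelihood test the unadjusted p was 0.0208 and the adjusted p 0.360, and 1134 of the 19741 genes had a p as small or smaller. Without control mouse 1602 or MLKL ASO mouse 1607 the unadjusted p was above 0.05. DESeq2 gave Flt3l an adjusted p of 0.181 and the authors' deposited table one of 0.277. The markers of T and NK cells, which are known to make FLT3 ligand, were lower in the same mice: 14 of 14 had a log2 fold change below 0, 13 of them at an unadjusted p under 0.05 (0 past the adjusted threshold in edgeR, 5 in DESeq2), and their summed level was 291 to 713 CPM in control and 202 to 272 CPM in MLKL ASO mice. Markers of B cells were lower too, with 10 of 10 below 0, 6 of them at an unadjusted p under 0.05, and a summed level of 4240 to 10905 CPM in control and 3396 to 4416 CPM in MLKL ASO mice. Of 9 dendritic cell markers 8 were below 0, 2 of them at an unadjusted p under 0.05, with summed levels of 416 to 641 and 299 to 364 CPM. Over all genes, 52.0% had a log2 fold change below 0, 7.13% were lower at an unadjusted p under 0.05 in edgeR, and DESeq2 called 2.42%. The part of these 3 cell types in the difference of Flt3l was not tested. Set against the mean log2 level of the T and NK cell markers, Flt3l was higher in MLKL ASO mice by 0.40 on the log2 scale. Against that of the B cell markers it was higher by 0.13, and against that of the dendritic cell markers it was lower, at -0.19.

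Interleukin 15, which sustains NK cells and memory T cells, gave overlapping groups. Il15 measured 7.66, 9.92 and 9.62 CPM in control mice 1601, 1602 and 1608 and 5.65, 6.60 and 8.20 CPM in mice 1603, 1604 and 1607. Mouse 1607 with the MLKL ASO lay above control mouse 1601. For Il15 the log2 fold change was -0.41 (SE 0.22, 95% interval -0.92 to 0.10, edgeR adjusted p = 0.503), and it stayed between -0.56 and -0.30 when any single mouse was left out. Il7 measured 4.04, 6.10 and 2.71 CPM in control mice 1601, 1602 and 1608 and 3.50, 3.90 and 3.34 CPM in mice 1603, 1604 and 1607. The MLKL ASO mice again lay inside the control range. For Il7 the log2 fold change was -0.26 (SE 0.32, 95% interval -1.01 to 0.49, edgeR adjusted p = 0.790), with 0.08 without control mouse 1602, the highest of all, and -0.50 without control mouse 1608, the lowest.

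Angptl2, a secreted angiopoietin-like protein that binds the paired receptor PIRB and supports stem cells in culture, had the largest fitted difference of the 10. It measured 17.3, 13.4 and 7.16 CPM in control mice 1601, 1602 and 1608 and 7.10, 6.13 and 3.82 CPM in mice 1603, 1604 and 1607. The groups did not overlap, but control mouse 1608 and MLKL ASO mouse 1603 were 7.16 and 7.10 CPM. The control level was 2.22-fold that of MLKL ASO mice, a log2 fold change of -1.15 (SE 0.37, 95% interval -2.02 to -0.29). In edgeR's quasi-likelihood test the unadjusted p was 0.0159 and the adjusted p 0.347, in DESeq2 the adjusted p was 0.0867, and the authors' deposited table gives a log2 fold change of -1.13 with an adjusted p of 0.0995. Without control mouse 1601 the log2 fold change was -0.85, and without mouse 1608 it was -1.44, and the unadjusted p was above 0.05 without mouse 1601 or 1607. Under RLE and upper-quartile scaling, under both other filters and without globin and antigen receptor rows or control mouse 1602, the groups of Angptl2 overlapped. The T and NK cell, B cell and dendritic cell markers given above for Flt3l were lower in the same mice as Angptl2 too, and their part in its difference was not tested. Against the mean log2 level of the T and NK cell markers the difference of Angptl2 was -0.11. Against that of the B cell markers it was -0.39 and against that of the dendritic cell markers -0.71. Angptl2 itself stood at -1.10 on the same log2 scale.

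Igf1 and Ptn, growth factors that act on many cells besides progenitors, were the others with a fitted difference above 0, beside Il34. Igf1, insulin-like growth factor 1, measured 43.8, 24.6 and 21.2 CPM in control mice 1601, 1602 and 1608 and 39.9, 23.8 and 30.7 CPM in mice 1603, 1604 and 1607. One mouse of each group, 1601 and 1603, was high. Igf1 had a log2 fold change of 0.07 (SE 0.31, 95% interval -0.65 to 0.80, edgeR adjusted p = 0.956). It turned to -0.06, -0.14 and -0.13 without control mouse 1602, MLKL ASO mouse 1603 or control mouse 1608. Ptn measured 0.851, 0.365 and 0.390 CPM in control mice 1601, 1602 and 1608 and 0.810, 0.874 and 0.868 CPM in mice 1603, 1604 and 1607. Control mouse 1601 lay among the MLKL ASO mice, and the other control mice lay below all of them. These values rest on 27 to 77 counts per library. Ptn had a log2 fold change of 0.66 (SE 0.44, 95% interval -0.37 to 1.70, edgeR adjusted p = 0.594), and it was 1.17 without control mouse 1601.

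**Figure D3:**
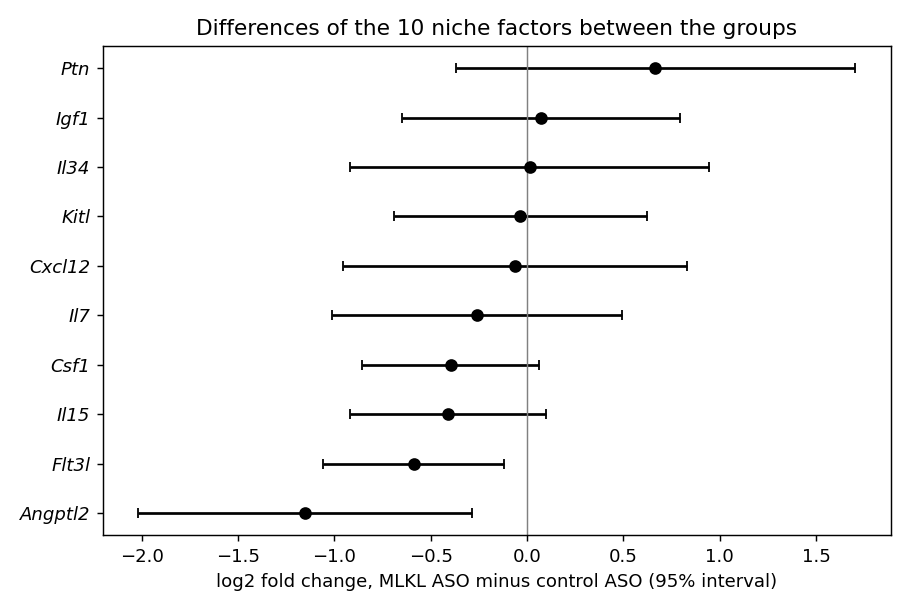
Log2 fold change of each niche factor (x axis, MLKL ASO minus control ASO) with its 95% interval from the edgeR fit to 6 mice, sorted from low to high. The intervals of Angptl2 and Flt3l lie below 0 before adjustment over all genes, and those of the other 8 factors include 0.

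The marker list closest to a factor from mouse to mouse was not the same for all factors. For Csf1, Il15 and Flt3l no list came closer than the factor's own spread. For each factor the spread over 6 mice of its log2 level minus the mean log2 level of a marker list was computed, for 12 lists fixed by cell type, which makes 120 pairs, and the closest list is described without a test. Kitl was closest to the splenic sinusoid markers: its own SD over the mice was 0.39, and that of the difference was 0.13. Of 137 single marker genes, Cdh5 was the closest to Kitl, with an SD of the difference of 0.051. The ratio of Kitl to Cdh5 CPM was 2.97, 2.81 and 3.03 in control mice 1601, 1602 and 1608 and 2.90, 3.11 and 2.96 in mice 1603, 1604 and 1607, while Kitl itself ranged 2.34-fold. Against Stab2 the ratio ran from 0.608 to 0.808, and against Pecam1 from 1.13 to 1.87. Cdh5 was picked for the smallest SD of the 137 markers, so its near-constant ratio restates that ranking. The next closest were Maf, of the sinusoid list, at 0.10 and Esam, of the endothelial list, at 0.13, both named after their values were seen.

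Cxcl12, Il34 and Il7 were closest to the mural cell markers, with an SD of the difference of 0.38, 0.30 and 0.19 beside their own SD of 0.57, 0.54 and 0.39. For Cxcl12 and Il34 the reticular fibroblast markers came next, at 0.41 and 0.31. All 3 factors were lowest in control mouse 1608, which also held the lowest mean log2 level of both lists. The summed mural cell level went the other way and was highest in mouse 1608, at 774 CPM beside 423 to 629 CPM in the other 5. Kcnj8 and Abcc9 made up most of that sum in mouse 1608, at 378 and 251 CPM. Acta2 and Myh11, of the same list, were at their lowest there, at 8.21 and 3.02 CPM. These genes were named after their values were seen. The summed reticular fibroblast level was 262 CPM in mouse 1608 and 568 to 837 CPM in the other 5, and Lum, a fibroblast proteoglycan named after its values were seen, had 0 counts there. Of the 15 reticular fibroblast markers, 9 had a log2 fold change above 0 and 6 below 0. In edgeR 0 passed the adjusted threshold and in DESeq2 1 did, where DESeq2 called 2.42% of all genes. Among single markers Col1a1 and Pdgfrb were the closest to both Cxcl12 and Il34. The ratio of Cxcl12 to Pdgfrb CPM was 33.0 to 47.5 in 5 mice and 62.6 in mouse 1608.

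Igf1 was closest to the macrophage markers. Its SD over the mice was 0.43 and that of its difference from the list 0.13. The summed macrophage level was 1136 to 3200 CPM in control and 1555 to 1955 CPM in MLKL ASO mice, 9 of 14 markers were below 0, and 0 had an unadjusted p under 0.05. The closest single genes were Spic, the transcription factor of iron-recycling red pulp macrophages, and Cd68, a lysosomal protein, both named after their values were seen. Angptl2 was closest to the T and NK cell markers, at an SD of 0.40 beside 0.79 for the gene itself, and next to the B cell markers, at 0.51. Its closest single marker was Ighm, the heavy chain of the B cell receptor, at 0.26. For Csf1 and Il15 no list came closer than the factor's own spread, and for Flt3l the closest list, that of dendritic cells, gave an SD of 0.40, equal to its own. A single marker came closer to Csf1 and to Flt3l: Fcgr2b, the inhibitory Fc receptor that is abundant on sinusoidal endothelium and also present on B cells, at 0.17 for each. For Il15 the closest was Gata2, a transcription factor of progenitors and endothelium, at 0.18. These single markers were named after their values were seen. Ptn was closest to the erythroid markers (0.36 beside 0.58), whose 10 measured genes lay above 0 in log2 fold change, where 52.0% of all genes lay below 0. Their summed level was 698 to 1624 CPM in control and 1072 to 2447 CPM in MLKL ASO mice. Their part in the difference of Ptn was not tested. A factor and the markers of a mouse come from the same library, and the cells that made each factor were not determined here.

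**Figure D4:**
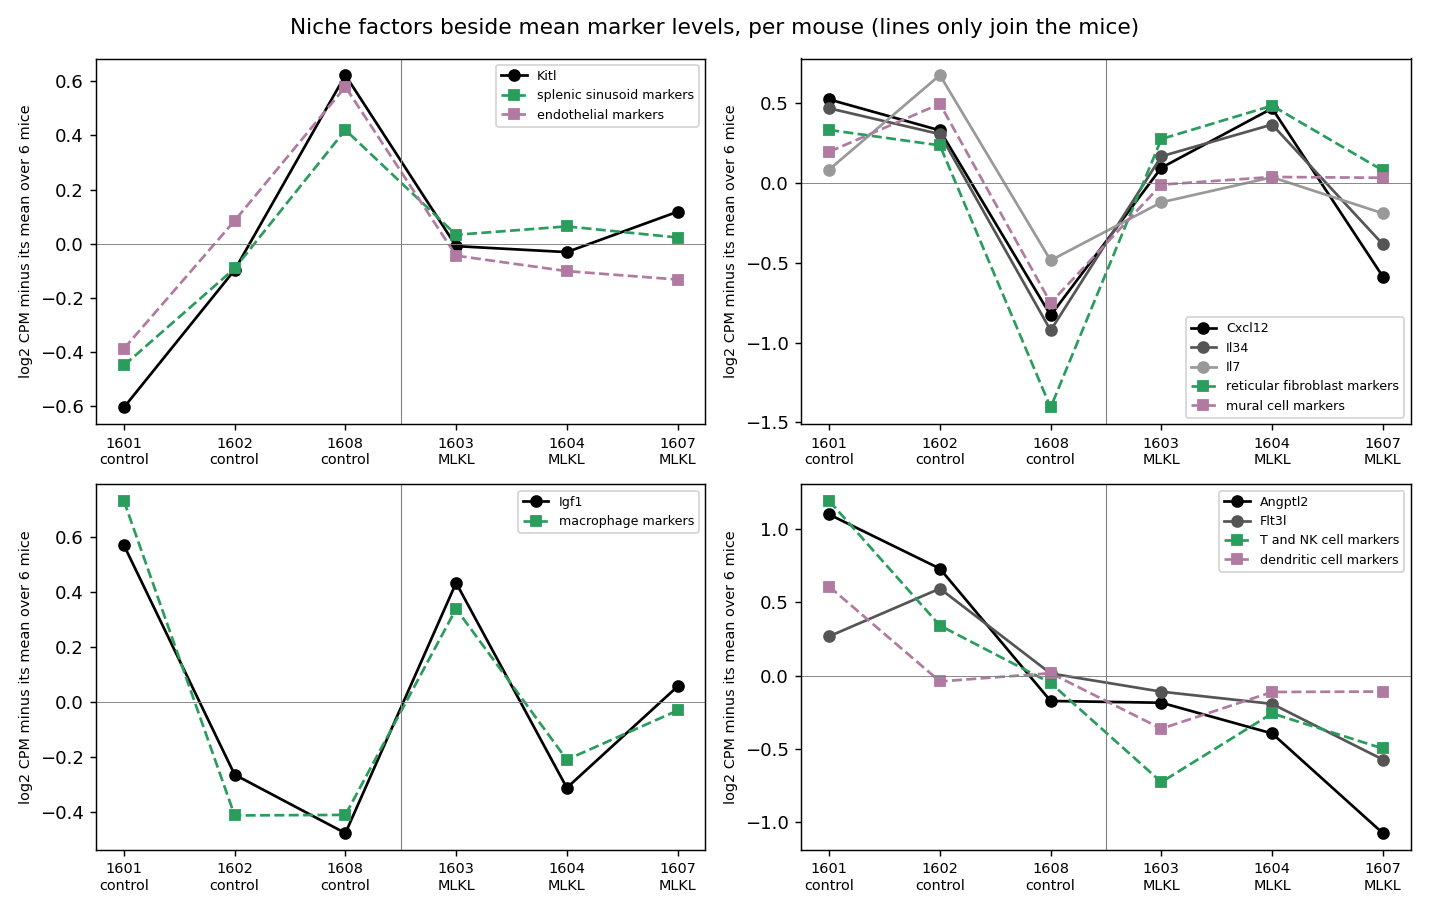
Log2 CPM minus its mean over the 6 mice (y axis) for niche factors (circles) and for mean levels of marker lists (squares), with the mice in group order on the x axis and lines that only join the points. Kitl lies with the endothelial lists and is highest in mouse 1608, where Cxcl12, Il34 and Il7 are lowest, and Igf1 lies with the macrophage list.

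The receptors of these factors were measured in the same libraries. Of 15 receptor genes listed, 14 were in the table and 13 passed the filter, Ptprz1, a receptor of pleiotrophin, being too low, and Alk is not analysed here. In edgeR 0 of 13 passed the adjusted threshold, where 0.0101% of all genes did. At an unadjusted p under 0.05 stood 3 lower and 0 higher, beside 7.13% and 4.86% of all genes. DESeq2 called 1 lower, beside 2.42% of all genes in either direction. The median log2 fold change of the 13 receptors was -0.17, beside -0.016 over all genes. The gene DESeq2 called was Il2rb, the shared beta chain of the interleukin 2 and 15 receptors on NK and T cells. It measured 34.1, 13.6 and 22.3 CPM in control mice 1601, 1602 and 1608 and 7.40, 11.7 and 10.2 CPM in mice 1603, 1604 and 1607. All control mice lay above all MLKL ASO mice. Il2rb had a log2 fold change of -1.26 (SE 0.34, adjusted p = 0.323 in edgeR and 0.0302 in DESeq2). The other receptors with groups apart were Il7r, the interleukin 7 receptor of lymphoid cells, and Flt3. With Il2rb, 3 of the 13 thus lay apart and lower, where 10% of all genes did. Il7r measured 18.8 to 28.0 CPM in control and 11.4 to 17.1 CPM in MLKL ASO mice, and Flt3 7.89 to 15.4 and 6.07 to 7.35 CPM. Ligand and receptor of the FLT3 pair were both at an unadjusted p under 0.05 (edgeR adjusted p = 0.360 for Flt3l and 0.368 for Flt3), as were 12% of all genes. For Angptl2, the factor with the largest fitted difference, the receptor gene Pirb had a log2 fold change of -0.01 (edgeR adjusted p = 0.994). Flt3 also marks dendritic cells and progenitors, and the part of the dendritic cell markers given above in its difference was not tested. The T and NK cell markers given above were lower in the same mice as Il2rb and Il7r. Of them 14 of 14 lay below 0, where 52.0% of all genes did, with a median log2 fold change of -1.07. Their part in the differences of Il2rb and Il7r was not tested.

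The receptors of Cxcl12 and Kitl gave wide ranges. Cxcr4, the signalling receptor of CXCL12 on blood cells, measured 2.93 to 5.57 CPM in control and 3.15 to 5.31 CPM in MLKL ASO mice. Ackr3, the scavenger receptor that removes CXCL12, measured 34.2, 38.3 and 155 CPM in control mice 1601, 1602 and 1608 and 106, 105 and 168 CPM in mice 1603, 1604 and 1607. Mouse 1608 lay with the MLKL ASO group, and the other control mice lay far below it. Ackr3 had a log2 fold change of 0.74 (SE 0.57, edgeR adjusted p = 0.648), and 1.80 without control mouse 1608 (edgeR adjusted p = 0.0731). Kit, the receptor of stem cell factor, measured 47.1, 51.6 and 94.7 CPM in control mice 1601, 1602 and 1608 and 52.2 to 62.7 CPM in MLKL ASO mice. Kit, like its ligand, was highest in mouse 1608 and lowest in mouse 1601, and its log2 fold change of -0.17 was 0.21 without mouse 1608.

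The remaining receptors gave overlapping groups. Csf1r measured 47.3 to 123 CPM in control and 41.0 to 53.6 CPM in MLKL ASO mice, and its log2 fold change of -0.61 was 0.0056 without control mouse 1601. Il2rg, the common gamma chain that interleukins 7 and 15 share, was the most abundant receptor per length, at 466 ± 30.3 CPM per kilobase in control and 462 ± 87.3 in MLKL ASO mice, above Kitl. The log2 fold change of Il2rg was -0.01 with TMM scaling and 0.0021 with RLE. For Il15ra, which presents interleukin 15, Igf1r, Pirb and the heparan sulphate carriers Sdc1 and Sdc3 the log2 fold changes lay between -0.26 and 0.04, each with an edgeR adjusted p of 0.627 or more.

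None of the genes for proteins that bind or cut the factors passed the threshold. Of 19 such genes listed, 17 were in the table and 16 were tested, and 0 passed the adjusted threshold in edgeR or DESeq2. At an unadjusted p under 0.05 in edgeR stood 4 lower and 0 higher, beside 7.13% and 4.86% of all genes. The median log2 fold change was -0.093, beside -0.016 over all genes. Dpp4, the peptidase that inactivates CXCL12, measured 53.6, 42.6 and 39.3 CPM in control mice 1601, 1602 and 1608 and 32.8, 29.4 and 27.5 CPM in mice 1603, 1604 and 1607. The lowest control mouse, 1608, stood at 39.3 CPM and the highest MLKL ASO mouse, 1603, at 32.8 CPM. Dpp4 had a log2 fold change of -0.59 (SE 0.15, edgeR adjusted p = 0.323), and it stayed between -0.69 and -0.45 with any single mouse left out. Htra1, a protease that cuts IGF-binding proteins, measured 30.1 to 54.9 CPM in control and 18.6 to 26.1 CPM in MLKL ASO mice (log2 fold change -0.83, edgeR adjusted p = 0.339). Igfbp7, a binding protein abundant in endothelium, measured 361, 923 and 372 CPM in control mice 1601, 1602 and 1608 and 296 to 315 CPM in MLKL ASO mice. Its log2 fold change was -0.85, and -0.26 without control mouse 1602. Igfbp3, the main IGF carrier of blood, measured 22.9 to 36.5 and 17.8 to 24.8 CPM, with overlap.

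Other factors known to act on blood formation gave no difference past the adjusted threshold. Of 28 listed, 25 were in the table and 24 were tested, with 0 past the adjusted threshold in edgeR or DESeq2. At an unadjusted p under 0.05 in edgeR stood 0, where 12% of all genes did. The median log2 fold change was -0.076, beside -0.016 over all genes. Angpt1, the ligand of the endothelial and stem cell receptor TIE2, measured 13.9, 16.8 and 1.34 CPM in control mice 1601, 1602 and 1608 and 17.7, 33.0 and 18.9 CPM in mice 1603, 1604 and 1607. The groups did not overlap, as in 8.73% of all genes in that direction, and mouse 1608 was low as it was for Cxcl12. The summed megakaryocyte markers were low in the same mouse, at 1227, 1762 and 112 CPM in control mice 1601, 1602 and 1608. In MLKL ASO mice 1603, 1604 and 1607 they were at 1488, 3115 and 2158 CPM. Of these markers 11 of 11 had a log2 fold change above 0, where 52.0% of all genes lay below 0. The groups lay apart and higher in 3 of the 11, where 8.73% of all genes did. The part of the megakaryocyte markers in the difference of Angpt1 was not tested. Angpt1 had a log2 fold change of 1.12 (SE 0.76, edgeR adjusted p = 0.600), and 0.60 without mouse 1608. Dll1, a Notch ligand, measured 37.0 to 82.6 and 68.9 to 101 CPM. Its log2 fold change was 0.60, and 0.99 without mouse 1608, and limma-voom gave it an unadjusted p of 0.0110 and an adjusted p of 0.173. Vcam1, the adhesion molecule that retains progenitors, measured 263 to 432 and 216 to 331 CPM, with a log2 fold change of -0.42, and -0.27 without mouse 1608. Il6 measured 1.89 to 3.79 and 1.24 to 2.55 CPM, with a log2 fold change of -0.57, which ran from -0.87 without MLKL ASO mouse 1607 to -0.26 without control mouse 1601.

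Of 9 transcription factors listed as regulators of stromal and splenic identity, all 9 were tested and 0 passed the adjusted threshold in edgeR or DESeq2. At an unadjusted p under 0.05 in edgeR, where 4.86% of all genes were higher, 1 of the 9 was higher. That gene was Foxc1, which maintains Cxcl12-rich reticular cells of the marrow. It measured 0.389, 0.402 and 0.346 CPM in control mice 1601, 1602 and 1608 and 0.664, 0.769 and 0.958 CPM in mice 1603, 1604 and 1607. All MLKL ASO mice lay above all control mice, at low levels, as in 8.73% of all genes. Foxc1 had a log2 fold change of 1.07 (SE 0.37, edgeR adjusted p = 0.361). Tcf21, a factor of spleen mesenchyme, measured 0.808 to 5.50 CPM in control and 4.14 to 7.49 CPM in MLKL ASO mice, Ebf1 75.2 to 139 and 48.9 to 97.1 CPM, and Nkx2-3, needed for spleen vasculature, 76.3 to 138 and 59.7 to 83.9 CPM. Without mouse 1608 the log2 fold change of Tcf21 was 0.20 in place of 0.68 and that of Nkx2-3 -0.29 in place of -0.54, and without mouse 1601 that of Ebf1 was -0.32 in place of -0.58.

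Single mice set the sign of 5 of the 10 differences. With each mouse left out in turn, the log2 fold change of Cxcl12 ran from -0.38 to 0.20, of Kitl from -0.28 to 0.35, of Il34 from -0.31 to 0.27, of Igf1 from -0.14 to 0.46 and of Il7 from -0.50 to 0.08. Angptl2 (-1.44 to -0.85), Flt3l (-0.72 to -0.43), Csf1 (-0.55 to -0.22) and Il15 (-0.56 to -0.30) stayed below 0 in these 6 fits, and Ptn (0.44 to 1.17) stayed above it. In each of these fits 0 of the 10 factors passed the adjusted threshold in edgeR, and 0 to 3 stood at an unadjusted p under 0.05, as did 7.03% to 15.2% of all genes.

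**Figure D5:**
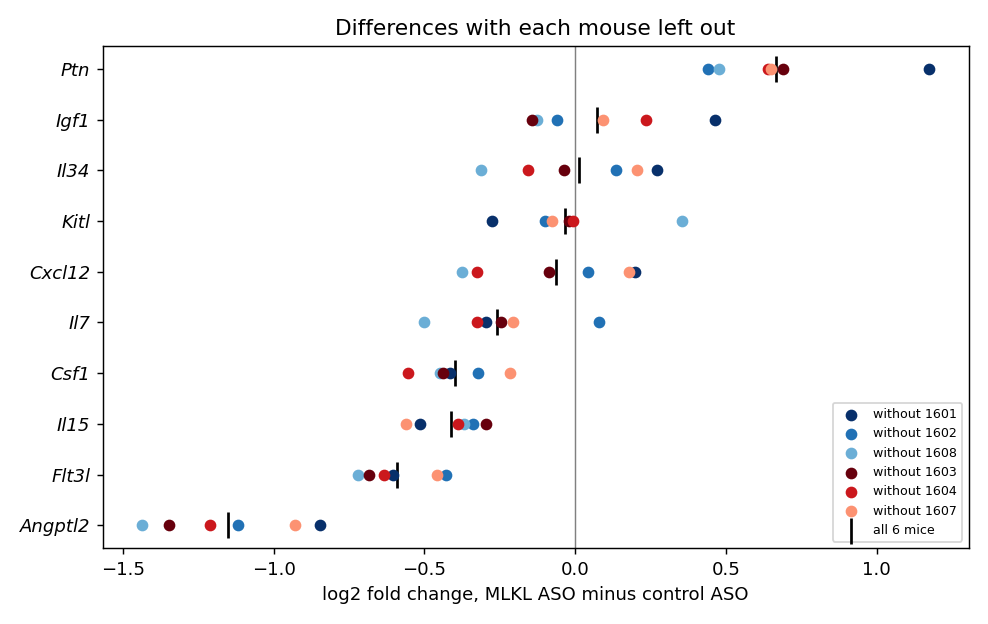
Log2 fold change of each niche factor (x axis, MLKL ASO minus control ASO) with all 6 mice as a vertical tick and with each mouse left out as a coloured point. The points of Cxcl12, Kitl, Il34, Igf1 and Il7 fall on both sides of 0, and those of Angptl2, Flt3l, Csf1 and Il15 stay below it.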

How the data were processed

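RNA of splenic endothelial cells from 6 mice was sequenced, 1 library per mouse. Per the submitters' processing notes, the authors used fastp 0.20.1, Salmon 1.3.0 and DESeq2; build, annotation and the step from transcripts to genes: not given in the sources used here. The deposited values are estimated counts per gene symbol, of which 69.3% are not whole, so genes with near-identical copies are uncertain. Rows named by a number (4) were left out. The authors also deposited a DESeq2 table with a mean normalised signal, log2 fold changes, a Wald score and p-values (per the file headers). Its values are quoted above for Csf1, Flt3l and Angptl2. It gives Mlkl a log2 fold change of -2.69, so its negative sign means lower with the MLKL ASO. For Cxcl12 it gives 0.047 and for Kitl 0.023, each of the opposite sign to the edgeR fit. The other factors have the same sign in both.

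Rounded counts went into edgeR 4.0.16 (R 4.3.3): default expression filter, TMM scaling, quasi-likelihood test (two-sided), Benjamini-Hochberg adjustment over 19741 genes, threshold 0.05. The procedure was tested on simulated data. DESeq2 1.42.0 and limma 3.58.1 were alternatives, with other scalings and filters and each mouse left out. Intervals are 95% intervals of the fit. Depth was 59988013 to 87775554 counts. Exon lengths came from GENCODE M21, matched by symbol, so levels per length are approximate. Log2 levels for markers used a prior count of 2. Text names all factors, Mlkl, all receptors, up to 4 genes with the smallest p of each other pathway list and 9 fixed marker genes. The members and lists were chosen with earlier results of these data known. Replicates are mice, per the labels.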

Additional observations from a re-analysis of the deposited data

How the results depend on the processing

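In edgeR, DESeq2 and limma-voom, and with each scaling, filter and left-out mouse, 0 of the 10 niche factors passed the adjusted threshold. The count over all genes, 2 as reported, was 4 with upper-quartile scaling, 9 with library totals only, 7 without globin, immunoglobulin and T cell receptor rows, 24 with limma-voom and 527 with DESeq2, and 0 (without control mouse 1602) to 19 (without control mouse 1608) with 1 mouse left out. Mlkl passed it at -2.54 with library totals only, -2.55 without those rows, -2.49 with limma-voom and -2.55 with DESeq2. The left-out mouse moved it from -2.81 to -2.32. DESeq2 called 1 receptor, Il2rb. Factors whose groups did not overlap, 3 as reported, numbered 1 with RLE, no filter, at least 1 CPM in 3 libraries, or those rows removed (17.7% to 19.9% of all genes). With a mouse left out they numbered 1 without 1602 (28.2% of all genes) to 5 without 1601 (4 lower and 1 higher, 32.2% of all genes); smaller groups lie apart more often.

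With limma-voom the log2 fold change was 0.10 for Kitl, -0.059 for Il34, 0.052 for Cxcr4, 0.067 for Kit, 0.11 for Pirb, 0.044 for Cdh5 and 0.44 for Adgre1, each of the opposite sign. That of Il2rg was 0.0021 with RLE, 0.015 with upper-quartile scaling and 0.018 with totals only, and that of Pirb 0.0094 and 0.031 with the latter pair; the cause was not tested. With 1 mouse left out, the median of the factors ran from -0.37 to -0.079, and the sign turned for Cxcl12 (-0.38 to 0.20), Kitl (-0.28 to 0.35), Il7 (-0.50 to 0.078), Il34 (-0.31 to 0.27), Igf1 (-0.14 to 0.46), Cxcr4 (-0.38 to 0.16), Kit (-0.35 to 0.21), Csf1r (-0.86 to 0.0056), Il2rg (-0.15 to 0.11), Il15ra (-0.069 to 0.24), Igf1r (-0.16 to 0.069), Pirb (-0.27 to 0.43), Cdh5 (-0.30 to 0.30), Stab2 (-0.39 to 0.12), Kdr (-0.34 to 0.044), Pdgfrb (-0.57 to 0.14), Col1a1 (-0.62 to 0.40) and Adgre1 (-0.43 to 0.74). Those fits hold 2 mice in 1 group.

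Keeping the rows named by a number, an alternative chosen after seeing the data, moved none of these counts by over 1.5 times. Ptn and Foxc1 have no value at 1 CPM or more in 3 libraries, which tests fewer genes. No paired analysis was possible because no mouse number occurs in both groups. Ptprz1 was too low to be tested, and Ptn and Foxc1 rest on low counts.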
